A study of Mus musculus with 5 samples.

Results

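The 35 genes described here encode proteins that copy DNA and divide the cell, and they were taken by name from a fixed list among the 32285 genes measured in each library. All 35 were found under 1 symbol each. They comprise 6 subunits of the MCM helicase, 5 proteins of the replication fork and of nucleotide supply, 6 cyclins and partners of the kinase CDK1, 6 mitotic kinases and parts of the ubiquitin ligase that ends mitosis, 6 proteins of the spindle, centromere and chromosome, and 6 genes whose products also serve cells that do not divide (Tuba1b, Tubb5, Stmn1, H2afz, Hmgb2 and Ran). The first 5 groups, 29 genes, are called the core members.

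A cell that prepares to divide first makes the enzymes that unwind and copy its DNA, then, after replication, the cyclins, kinases and spindle proteins that carry it through mitosis. In the neutrophil lineage, division belongs to the precursors of the bone marrow: promyelocytes make primary granule proteins, myelocytes make secondary granule proteins while still dividing, and later stages no longer divide. Many genes of division share promoter elements, among them the CCAAT box and the cell cycle homology region, while genes of replication often carry sites for E2F factors.

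The libraries hold sorted neutrophils of bone marrow (BM), peripheral blood (PB) and lung of female C57BL/6J wild-type mice. A 10x Chromium library was made from mice bearing AT3-gcsf tumours, another from mice bearing AT3 tumours (AT3 is a mouse mammary carcinoma line) and another from naive mice. The labels give neither the age of the mice nor how many were used, nor how the AT3-gcsf tumours, named for the neutrophil growth factor G-CSF, differ from AT3 tumours beyond their name. Within each library 3 hashtag antibodies marked 3 populations, MHTO3, MHTO4 and MHTO5 in the AT3-gcsf and naive libraries and MHTO7, MHTO8 and MHTO10 in the AT3 library, and no label used here says which tag marks which tissue.

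With 1 library per condition, effects of the condition and of the 10x lane cannot be told apart, and no difference between libraries has a replicate check. No p-value is given. Intervals are 95% intervals that cover counting error only, and a difference of at least 2-fold, on the scale of counts per 1000000 UMIs (CPM) plus 1, is called higher or lower. After assignment of tags, 10193 AT3-gcsf, 7634 AT3 and 7406 naive cells remained, with medians of 7575, 4789.5 and 2776 unique molecular identifiers (UMIs). Cells in which 6 neutrophil lineage markers (S100a8, S100a9, Ly6g, Csf3r, Retnlg and Cxcr2) made up at least 20% of UMIs were 71.4%, 61.7% and 40.6% of these. Between the AT3 and naive libraries 44 cell barcodes were shared, with a median 62.1-fold difference in UMIs between the copies, and 20 were shared in each of the other pairs. The shares of cells with several core members, and some ratios and counts between libraries, are therefore also given without those cells. Values by marker class are not.

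Replication and division members differed in the cells that carried them, and their promoters are given so that the elements they hold can be set beside those values. For 29 of the 35 members RefSeq (GRCm38.p6) promoters were at hand, 30 in all, and the 250 bases before each start were searched on both strands. The words searched were CCAAT for the CCAAT box, TTTGAA for the cell cycle homology region (CHR), and TTTCCCGC, TTTCGCGC, TTTGCCGC and TTTGGCGC for E2F, where a match on one strand can share bases with a match on the other. The promoters of 6 members that carry the results are given, 5′ to 3′ on the strand of the gene, with matched words in capitals. Mcm5 and Mcm6 stand for the helicase, Cdk1, Ube2c, Cks2 and Mki67 for division.
Mcm5 (chr8:75109259-75109508, plus strand): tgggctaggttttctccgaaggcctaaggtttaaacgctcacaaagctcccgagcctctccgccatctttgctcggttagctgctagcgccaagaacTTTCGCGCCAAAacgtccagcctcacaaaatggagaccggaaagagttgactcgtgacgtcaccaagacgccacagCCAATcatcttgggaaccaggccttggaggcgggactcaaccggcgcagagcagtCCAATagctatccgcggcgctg
Mcm6 (chr1:128359706-128359955, minus strand): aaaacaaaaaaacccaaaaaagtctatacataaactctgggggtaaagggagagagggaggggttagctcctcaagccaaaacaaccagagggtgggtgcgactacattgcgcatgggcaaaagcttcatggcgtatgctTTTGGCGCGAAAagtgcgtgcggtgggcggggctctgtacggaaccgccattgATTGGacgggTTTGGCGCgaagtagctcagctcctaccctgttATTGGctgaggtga
Cdk1 (chr10:69352913-69353162, minus strand): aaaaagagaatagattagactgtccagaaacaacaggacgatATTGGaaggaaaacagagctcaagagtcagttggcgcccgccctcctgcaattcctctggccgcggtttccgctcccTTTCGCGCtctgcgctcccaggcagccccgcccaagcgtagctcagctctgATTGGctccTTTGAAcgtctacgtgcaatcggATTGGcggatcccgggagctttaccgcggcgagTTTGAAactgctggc
Ube2c (chr2:164769679-164769928, plus strand): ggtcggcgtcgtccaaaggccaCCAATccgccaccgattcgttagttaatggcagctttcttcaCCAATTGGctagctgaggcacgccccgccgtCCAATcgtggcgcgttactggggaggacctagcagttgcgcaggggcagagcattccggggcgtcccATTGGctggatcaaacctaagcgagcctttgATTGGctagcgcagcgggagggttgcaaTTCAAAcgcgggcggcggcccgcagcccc
Cks2 (chr13:51644982-51645231, plus strand): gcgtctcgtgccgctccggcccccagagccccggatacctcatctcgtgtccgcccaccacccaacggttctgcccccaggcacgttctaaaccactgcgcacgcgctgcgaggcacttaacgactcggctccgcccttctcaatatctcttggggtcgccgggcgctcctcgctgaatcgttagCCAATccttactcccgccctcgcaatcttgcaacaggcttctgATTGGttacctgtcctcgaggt
Mki67 (chr7:135716380-135716629, minus strand): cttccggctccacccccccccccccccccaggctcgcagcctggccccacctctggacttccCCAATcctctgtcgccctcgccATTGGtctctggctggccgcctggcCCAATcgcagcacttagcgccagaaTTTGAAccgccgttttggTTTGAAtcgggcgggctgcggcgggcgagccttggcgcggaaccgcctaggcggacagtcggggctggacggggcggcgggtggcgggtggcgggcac

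At least 1 CCAAT box lay in 13 of 15 division promoters (86.7%) and in 9 of 11 replication promoters (81.8%), against 33.9% of all 32851 mouse promoters of the table. A pair or more of CCAAT boxes was found in 12 of 15 division promoters and 5 of 11 replication promoters, against 10.1% of all promoters. The CHR word was in 7 division promoters (46.7%, those of Ccnb2, Cdc20, Cdk1, Cks1b, Mki67, Top2a and Ube2c) and in 1 replication promoter, that of Mcm2, against 16.0% of all promoters. Each of these 7 division promoters also held a CCAAT box, a combination found in 5.55% of all promoters. E2F words were in 3 replication promoters (27.3%, Mcm5, Mcm6 and the second Mcm7 promoter) and in 1 division promoter, that of Cdk1, against 1.86% of all promoters. The median share of G and C was 61.6% in division and 56.4% in replication promoters, against 52.4% overall. These matches describe letters in a window and not bound sites.

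The core members summed to 128 CPM in the AT3-gcsf library, 316 CPM in the AT3 library and 577 CPM in the naive library. Cks2, which encodes a small subunit that docks onto cyclin-dependent kinases, made up 6192 of 11514, 8332 of 16490 and 6546 of 17123 of these UMIs. Without Cks2 the sums were 59.0, 156 and 357 CPM. In such sums, fewer cells that divide and less RNA per dividing cell cannot be told apart. Cells that hold several core members are therefore counted first and the levels of each gene follow.

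Cells that held many core members were few. Cells with a UMI of at least 5 of the 29 core members, called multi-member cells, numbered 24 in the AT3-gcsf library (0.235%, interval 0.151 to 0.350%), 50 in the AT3 library (0.655%, 0.487 to 0.863%) and 67 in the naive library (0.905%, 0.702 to 1.15%). At least 10 core members were found in 13, 32 and 47 cells, and at least 20 in 9, 25 and 37. No UMI of Mki67 or Top2a was found in 9 of 11, 14 of 18 and 13 of 20 cells with 5 to 9 core members. The same held for 1, 0 and 0 of the cells with at least 10. A multi-member cell is therefore not taken to be a dividing cell. Just outside and just inside the threshold, 9, 12 and 24 cells held exactly 4 core members and 1, 7 and 9 exactly 5, while the fullest cell of each library held all 29. The multi-member cells carried 22.9%, 39.1% and 54.7% of all core UMIs of their library. The interval of the AT3-gcsf share lay below both others, and those of AT3 and naive overlapped.

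Detection depends on depth, and the multi-member cells were deep. Their median was 33446.5 UMIs against 7563 in the other cells of the AT3-gcsf library, 31640.5 against 4758 in the AT3 library and 20171 against 2766 in the naive library. When each cell was thinned to 1500 UMIs, leaving out 132, 101 and 465 shallower cells, 8 of 10061 AT3-gcsf cells (0.0795%), 24 of 7533 AT3 cells (0.319%) and 38 of 6941 naive cells (0.547%) still held 5 core members. The order of the libraries was the same as without thinning, but without cells carrying at least 3 markers of another lineage the shares were 0.0888%, 0.413% and 0.365%, so that AT3 was above naive. Cells sharing a barcode with another library were 0, 5 and 16 of the multi-member cells, none of them the smaller copy. Without all shared barcodes the counts were 24 of 10153 (0.236%), 45 of 7589 (0.593%) and 51 of 7353 (0.694%).

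**Figure D1:**
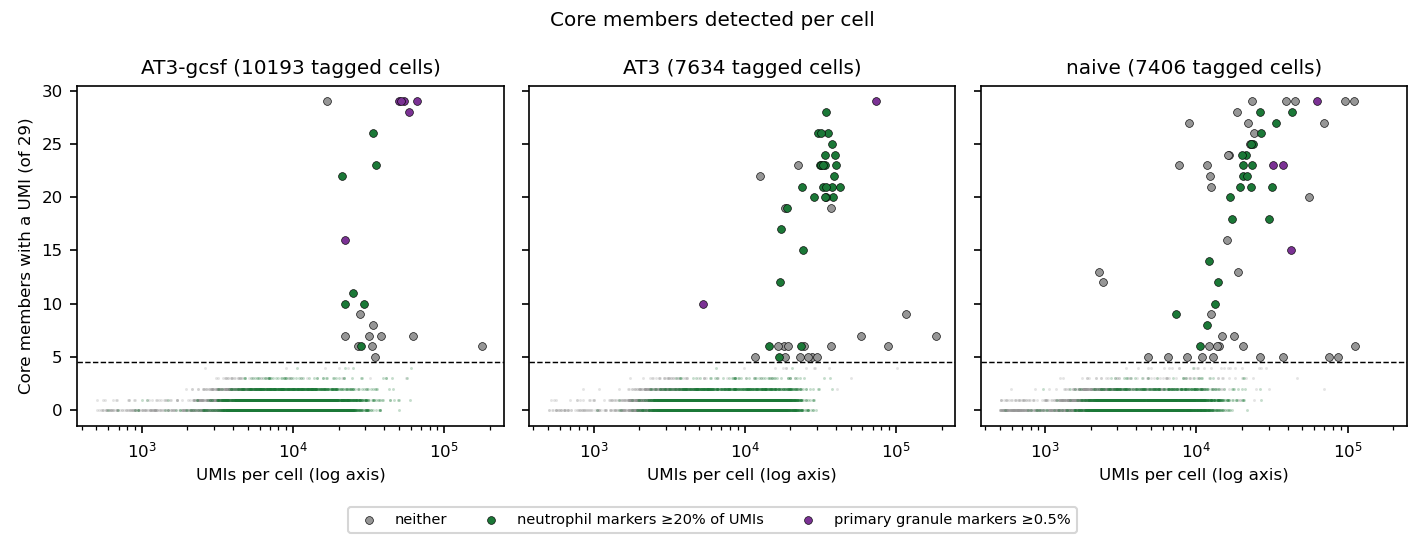
Core members with a UMI (of 29, vertical axis) against UMIs per cell (horizontal log axis) for every tagged cell of the AT3-gcsf, AT3 and naive libraries, coloured by marker class, with the threshold of 5 dashed. Of the 24, 50 and 67 cells on or above the line, 24, 47 and 61 are among the deepest 10% of their library and 2 naive cells lie below the median depth, and in the AT3 library 26 of the 29 neutrophil-marker-rich ones hold at least 10 core members.

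Mature neutrophils no longer divide, so free RNA was judged from cells with their markers. These mature-marker cells had at least 4 of 8 mature markers and no UMI of primary granule markers or of Ltf and Fcnb. No share of neutrophil lineage markers was required, so other cells may be in the set. Whether a member UMI in it was free RNA was not tested. Of 6209, 4089 and 4404 such cells, 2, 2 and 9 were multi-member cells. Cells with at least 5 other core members were left out on both sides of the comparison. Top2a, the topoisomerase that untangles replicated chromosomes, then had a UMI in 5 of 6207 mature-marker cells of the AT3-gcsf library (0.0806%, interval 0.0262 to 0.188%), 2 of 4087 of the AT3 library (0.0489%, 0.00593 to 0.177%) and 17 of 4395 of the naive library (0.387%, 0.225 to 0.619%). In the remaining cells it had a UMI in 8 of 3962 AT3-gcsf cells (0.202%, 0.0872 to 0.397%), 14 of 3498 AT3 cells (0.400%, 0.219 to 0.671%) and 16 of 2946 naive cells (0.543%, 0.311 to 0.880%). Median depths were 10871, 7054 and 3759.5 UMIs in the remaining cells, against 6372, 3982 and 2536 in the mature-marker cells. The intervals overlapped in the AT3-gcsf and naive libraries and not in the AT3 library, where the depths differed as well.

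A different pattern was seen for 4 core members. Among the same mature-marker cells, Cks2 had a UMI in 27.3%, 42.8% and 38.5%, Cenpa (the histone H3 variant of the centromere) in 9.23%, 8.78% and 8.10%, Pcna (the sliding clamp of DNA polymerases) in 5.56%, 4.82% and 3.71%, and Mcm4 in 5.01%, 3.45% and 1.46%, in AT3-gcsf, AT3 and naive cells. In cells thinned to equal depth, Cks2 was in 11.9%, 26.4% and 27.9% of mature-marker cells and in 9.98%, 22.3% and 25.1% of all cells. The share of Mcm4 after thinning was 1.19%, 1.29% and 0.804% of mature-marker cells, that of Pcna 1.34%, 2.01% and 2.02%, and that of Cenpa 2.57%, 2.92% and 5.22%. These thinned shares include multi-member cells, and at equal depth Cenpa and Pcna were lowest in AT3-gcsf, where they were highest before thinning. These 4 transcripts were spread over mature-marker cells that were not multi-member cells.

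The share of each gene's UMIs that lay in cells with at least 5 other core members measures the same contrast. This share was above 50% for 23 of 29 core members in the AT3-gcsf library, 24 in the AT3 library and 25 in the naive library, with medians of 82.6%, 88.0% and 90.7%. The cells that supplied it were 1.11%, 3.37% and 6.13% of all UMIs. Birc5 (survivin, of the chromosomal passenger complex) was at 94.1%, 94.3% and 95.9%, and Rrm2, the small subunit of ribonucleotide reductase, at 93.3%, 92.9% and 93.2%. Cks2 was at 2.62%, 5.34% and 10.7%, and Mcm4 at 6.22%, 9.09% and 38.4%. Mki67, the proliferation antigen, was at 64.3%, 91.1% and 94.5%.

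**Figure D2:**
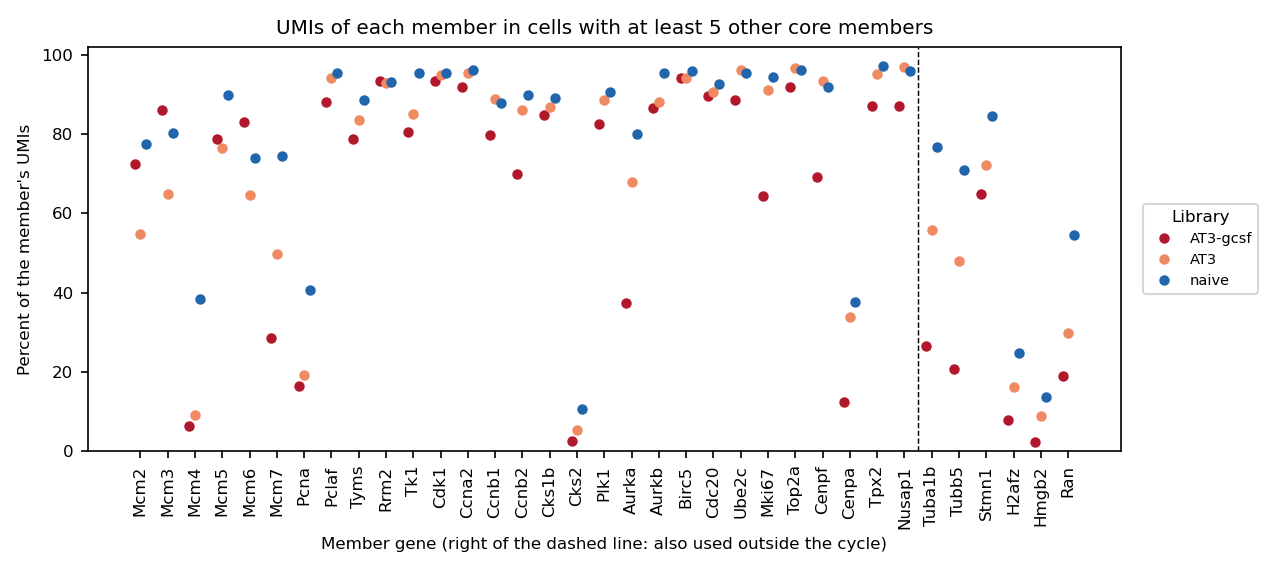
Percent of each member's UMIs (vertical axis) that lay in cells with at least 5 other core members, for 35 genes (horizontal axis) in the AT3-gcsf, AT3 and naive libraries; the last 6 genes are also used outside the cycle. Most core members lie above 50%, while Cks2 lies at 2.62%, 5.34% and 10.7%.

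The tag populations of a library differed in their multi-member cells. In the AT3-gcsf library the MHTO4 population held 14 multi-member cells (0.391% of its cells), MHTO5 held 9 (0.241%) and MHTO3 held 1 (0.0348%). In the AT3 library MHTO7 held 29 (1.46%), MHTO8 held 19 (0.613%) and MHTO10 held 2 (0.0786%). In the naive library MHTO4 held 49 (2.29%), MHTO5 held 17 (0.702%) and MHTO3 held 1 (0.0351%). In each library 1 population thus held the most, and it was the one in which these cells carried 48.3% (AT3-gcsf MHTO4), 74.8% (AT3 MHTO7) and 81.4% (naive MHTO4) of all core UMIs. All 9 multi-member cells of AT3-gcsf MHTO5 and 15 of the 19 of AT3 MHTO8 held fewer than 10 core members, against 2 of 29 in AT3 MHTO7 and 10 of 49 in naive MHTO4. After thinning, 8, 0 and 0 cells remained in AT3-gcsf MHTO4, MHTO5 and MHTO3, 20, 3 and 1 in AT3 MHTO7, MHTO8 and MHTO10, and 32, 6 and 0 in naive MHTO4, MHTO5 and MHTO3. The share of a library depended on its high population: it was 0.151% in AT3-gcsf without MHTO4, 0.372% in AT3 without MHTO7 and 0.342% in naive without MHTO4, the last below the whole AT3 share.

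The multi-member cells fell into 3 marker classes, drawn after their values were seen. In the first, neutrophil lineage markers made up at least 20% of UMIs. In the second, below that limit, 5 primary granule markers (Elane, Mpo, Prtn3, Ctsg and Ms4a3) made up at least 0.5%. The third held the rest. The AT3-gcsf library had 7, 6 and 11 cells in these classes, the AT3 library 29, 2 and 19, and the naive library 24, 4 and 39. At most 1 multi-member cell per library had lineage markers between 15% and 25% of UMIs, so the first limit cut few multi-member cells.

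Among neutrophil-marker-rich cells alone, multi-member cells were 7 of 7282 in the AT3-gcsf library (0.0961%, interval 0.0387 to 0.198%), 29 of 4711 in the AT3 library (0.616%, 0.413 to 0.883%) and 24 of 3004 in the naive library (0.799%, 0.513 to 1.19%). Nearly all came from the populations named above. AT3-gcsf MHTO4 gave 6 of 2457 (0.244%), AT3 MHTO7 gave 26 of 1761 (1.48%) and naive MHTO4 gave 24 of 1824 (1.32%). The interval of AT3-gcsf MHTO4, 0.0897 to 0.531%, lay below those of AT3 MHTO7 (0.967 to 2.16%) and naive MHTO4 (0.845 to 1.95%), which overlapped. No label ties these 3 tags to each other or to a tissue.

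The 12 tagged cells of the primary granule class (6, 2 and 4) were all multi-member cells and all held at least 10 core members. Of them, 6 held all 29 core members. The limit of this class was drawn after the values of the multi-member cells were seen, so the match is no independent check. In the remaining class, the naive cells nearest the limit had 0.327% and 0.232% primary granule markers and held 9 and 5 core members. An AT3 cell further below, at 0.124%, held 23. In 1 AT3-gcsf cell of the 12, basophil and mast cell markers (2.62% of UMIs) exceeded primary granule markers (2.02%). Of the 12, 11 came from AT3-gcsf MHTO4, AT3 MHTO7 and naive MHTO4, and 1 from naive MHTO5. Their median depth was 53070 UMIs in the AT3-gcsf library, 39314 in AT3 and 39905 in naive. A barcode was shared with another library by 1 of the 2 AT3 cells and by all 4 naive cells.

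In the remaining class, cells were grouped by the marker list of another cell type with the highest share of their UMIs, without naming them. Endothelial markers led in 8 of 11 AT3-gcsf cells, 6 of 19 AT3 cells and 5 of 39 naive cells. Dendritic cell markers led in 4 AT3 and 8 naive cells, and epithelial markers in 1, 4 and 3 cells. The leading share was small in some cells. For dendritic cell markers it was 0.0156 to 3.92% of UMIs in AT3 MHTO8, 0.0656 to 0.433% in naive MHTO4 and 0.138 to 10.1% in naive MHTO5. For epithelial markers it was 0.921 to 52.9% in AT3 MHTO8, and for monocyte markers 0.207 to 0.308% in naive MHTO4. In the naive library B cell markers led in 7 cells, erythroid markers in 5 and monocyte markers in 5. At least 10 core members were found in 6, 4 and 3 of them. Of the endothelial-led cells, none in the tumour libraries and 1 in the naive library reached 10 core members. Members in a tagged cell therefore do not mark neutrophil precursors alone, and in naive MHTO4 22 of 49 multi-member cells were in this class. There the class gave 1136 UMIs of replication members and 2963 of division members, against 537 and 2478 in the neutrophil-marker-rich class. Of Top2a, 570 UMIs of naive multi-member cells lay in this class and 255 in the neutrophil-marker-rich class. Levels and ratios over all tagged cells include these cells.

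The balance between replication and division genes differed between the classes. The 11 replication members (MCM subunits, fork and nucleotide genes) made up 23.5%, 11.9% and 17.8% of core UMIs in the neutrophil-marker-rich multi-member cells of the AT3-gcsf, AT3 and naive libraries. In the AT3-gcsf library 1 cell near the class limit, with 22.9% lineage and 1.19% primary granule markers, gave 76 of the 137 replication UMIs. In the primary granule class they made up 39.3%, 55.0% and 49.8%. In the remaining class they made up 39.7%, 32.5% and 28.0%. The median cell of that class in the AT3-gcsf library had 83.3% replication UMIs, against 57.1% in the AT3 and 40.4% in the naive library. More replication than division UMIs were found in 0 of 7, 1 of 29 and 1 of 24 neutrophil-marker-rich cells, in 1 of 6, 1 of 2 and 3 of 4 cells of the primary granule class, and in 9 of 11, 11 of 19 and 18 of 39 of the remaining cells. The summed replication share was lower in the neutrophil-marker-rich than in the primary granule class in all 3 libraries, over 2 to 29 cells a class. These values include cells with a shared barcode. In the primary granule class these were 1 of 2 AT3 and all 4 naive cells, and in the remaining class 4 of 19 AT3 and 10 of 39 naive cells.

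**Figure D3:**
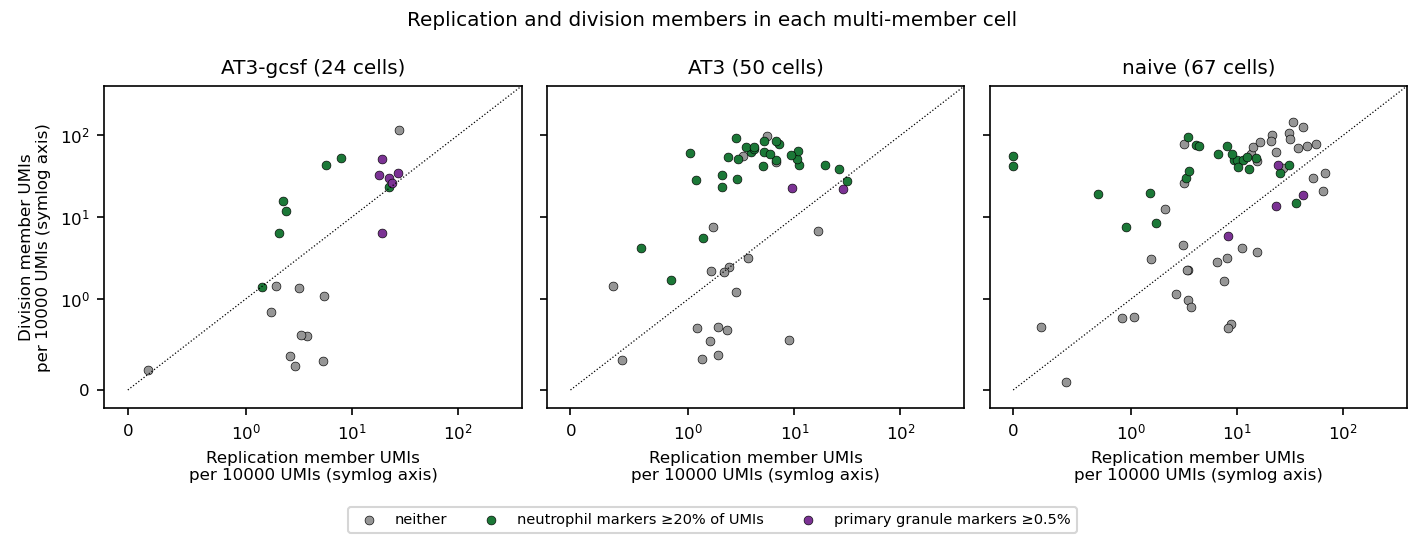
Division member UMIs (vertical axis) against replication member UMIs (horizontal axis), both per 10000 UMIs of a cell on axes linear below 1 and logarithmic above, for the 24, 50 and 67 multi-member cells of the AT3-gcsf, AT3 and naive libraries, coloured by marker class, with equality dotted. Neutrophil-marker-rich cells lie mostly above the dotted line and most AT3-gcsf cells of neither marker class lie below it.

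Among the neutrophil-marker-rich multi-member cells, the median of the 18 division members was found in 5 of 7 AT3-gcsf, 26 of 29 AT3 and 20 of 24 naive cells, and that of the 6 helicase subunits in 1.5, 7.5 and 8. All 18 division members were in more than 50% of the AT3 and naive cells and 13 in more than 50% of the AT3-gcsf cells, where Aurka, Aurkb, Cenpf and Nusap1 were each in 2 of 7 and Top2a in 3. The cells were chosen by these same core members, and the gene counted was not left out of that choice. Frequent detection of core members in them is therefore partly fixed in advance. Ube2c, which loads ubiquitin for the anaphase-promoting complex, had a UMI in 6 of 7 AT3-gcsf, 27 of 29 AT3 and 20 of 24 naive cells. Its level was 381, 1165 and 762 CPM in them, against 453, 203 and 132 CPM in the primary granule class. Mki67 was found in 5 of 7, 27 of 29 and 23 of 24 of the neutrophil-marker-rich cells, and Ccnb2, cyclin B2, in 7, 28 and 24. Of the helicase, Mcm2 was found in 1, 0 and 7 of them, Mcm6 in 1, 6 and 9, Mcm5 in 2, 10 and 12, and Mcm7, the most often found, in 4, 10 and 14. Pcna was found in 3, 11 and 9. Pclaf, a partner of the sliding clamp, was the replication member found in most of these cells, in 7 of 7, 28 of 29 and 20 of 24. Rrm2 followed in 4, 21 and 15.

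Outside the members, these cells also differed from the other neutrophil-marker-rich cells of their library in granule and maturation genes. The latter were pooled over tags, here and below. Of the multi-member ones, 6 of 7, 26 of 29 and 24 of 24 came from AT3-gcsf MHTO4, AT3 MHTO7 and naive MHTO4. Over all tagged cells, secondary granule markers summed to 16394 CPM in AT3-gcsf MHTO4, against 13954 and 11712 CPM in its other tags. In AT3 MHTO7 the sum was 50632 CPM, against 12936 and 9272 CPM, and in naive MHTO4 63972, against 4517 and 2942 CPM. The part of tag in the ratios was not tested. Camp, the cathelicidin of secondary granules, stood at 16590.0 CPM in AT3-gcsf multi-member cells and 602 CPM in the others, a log2 ratio of 4.78. In the AT3 library it was 40869 against 5741 CPM (2.83) and in the naive library 54304 against 15425 CPM (1.82). Over all genes tested, 18.2%, 19.9% and 21.1% were higher by at least 2-fold in these few, deep cells and 35.7%, 21.9% and 23.7% were lower. Cebpe, the transcription factor of secondary granule genes, was higher by 4.33, 3.59 and 1.98, and Fcnb, a ficolin of the same granules, by 5.44, 5.36 and 4.94. Ltf, lactoferrin, was higher by 3.03 and 1.52 in the tumour libraries, and by 0.53 in the naive library, short of 2-fold. The granule genes named here were picked from 8 secondary granule markers after their values were seen.

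The maturation genes named here, picked from 8 mature markers after their values were seen, ran the other way. Il1b, the inflammatory cytokine, was lower by log2 ratios of -6.64, -3.60 and -4.29, Cxcr2, the receptor by which neutrophils leave the marrow, by -2.14, -2.60 and -3.72, and Mmp8, the neutrophil collagenase, by -2.69, -3.27 and -4.41. Csf3r, the G-CSF receptor, was lower by -3.68, -3.15 and -3.17, and both it and Cxcr2 were in the list that defined the class. The 5 primary granule genes were uneven in these cells. The 135 Elane UMIs of the AT3-gcsf cells came from 1 of 7 cells, 6 UMIs from 1 of 29 AT3 cells, and 530 UMIs from 1 of 24 naive cells, and Mpo gave 32, 1 and 113 UMIs, again each from 1 cell. Ctsg gave 15 UMIs in 1 AT3-gcsf cell, none in AT3 cells and 32 UMIs in 1 naive cell. Prtn3, by contrast, had a UMI in 7 of 7 AT3-gcsf, 21 of 29 AT3 and 2 of 24 naive cells, at 1049, 101 and 391 CPM against 31.6, 10.2 and 2.47 CPM in the other neutrophil-marker-rich cells, although 1 cell gave 181 of its 204 UMIs in AT3-gcsf and 198 of 199 in naive. Ms4a3 had a UMI in 6 of 7, 20 of 29 and 8 of 24 cells, at 278, 86.4 and 165 CPM, against 0.355 CPM (AT3-gcsf) and 1.08 CPM (naive) in the other cells.

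Genes that hold cells out of the cycle were compared in the same cells. Of 16 inhibitor and quiescence genes, 11, 12 and 13 reached a mean of 2 CPM in AT3-gcsf, AT3 and naive. Of these, 6, 5 and 3 were lower by at least 2-fold and 0, 2 and 2 higher. Over all genes tested 35.7%, 21.9% and 23.7% were lower, so the naive count was near the share of all genes. Btg1, an antiproliferative gene of quiescent cells, stood at 51.4 CPM in the multi-member and 1334 CPM in the other neutrophil-marker-rich cells of the AT3-gcsf library, 165 against 1446 CPM in the AT3 library and 100.2 against 1012 CPM in the naive library. Btg2, its relative, was lower by -3.27, -3.36 and -2.82, and Mxd1, which opposes MYC, by -2.82, -2.07 and -3.02. The inhibitor Cdkn1b was lower by -1.42, -1.21 and -0.85, the last short of 2-fold. Cdkn2c, an inhibitor of the cyclin D kinases, was higher by 4.01, 5.54 and 5.20, found in 2 of 7, 23 of 29 and 16 of 24 cells. Not all inhibitors of the cycle were thus low where the members were high.

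Kinase and cyclin genes of the entry into the cycle were uneven. Foxm1, a transcription factor of mitotic genes, was higher by 4.04, 4.48 and 5.16, resting in the AT3-gcsf library on 3 UMIs of 1 cell. Cdk2 stood at 41.1 CPM against 9.56 CPM in the AT3-gcsf library, 35.9 against 9.83 CPM in AT3 and 60.9 against 16.2 CPM in naive, higher by at least 2-fold in each. Ccnd3, cyclin D3, differed by 0.30, 0.21 and 0.01, and stood at 591, 545 and 424 CPM in these cells. Ccnd2, cyclin D2, had no UMI in the 7, 29 and 24 cells, against 2.49, 8.05 and 11.4 CPM in the others, where a count of 0 (3 UMIs) allows up to 15.4, 3.37 and 5.90 CPM in them, so that the difference was not detectable at this depth in the AT3-gcsf library. Among 30 genes of the spindle and its checkpoint, 29, 30 and 30 were higher by at least 2-fold, most of them at low counts: 3, 14 and 21 reached a mean of 2 CPM, and all of these were higher. Over all genes tested, 18.2%, 19.9% and 21.1% were higher. The cells were chosen by core members, so genes that vary with those, here and in the ranked lists below, are high partly by that choice.

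By a fixed rank, the 20 genes with the highest log2 ratio in these neutrophil-marker-rich cells, members aside, were listed per library. Common to all 3 lists were 5 genes: Cdkn3, a phosphatase of cyclin-dependent kinases, Fbxo5, an inhibitor of the anaphase-promoting complex, the histone gene Hist1h1b, Knstrn of the kinetochore, and Ms4a3, a gene of granulocyte precursors. Cdkn3 had a UMI in 6 of 7, 29 of 29 and 20 of 24 cells, Knstrn in 6, 25 and 18, Fbxo5 in 2, 12 and 14, and Hist1h1b in 1, 12 and 16. In the AT3-gcsf library Fbxo5 rested on 7 UMIs and Hist1h1b on 8. Over all multi-member cells, the genes common to the 3 lists were Ctsg, Elane, Mpo and Ms4a3. Scgb1a1, the secretoglobin of airway epithelium, led the AT3-gcsf list there, with 77601 of its 77623 UMIs in 1 of 24 cells.

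Levels of the members by tag population followed the cells. In the AT3-gcsf library MHTO4 was the highest population for 32 of 35 members, in the AT3 library MHTO7 for 27 and in the naive library MHTO4 for 31. Ube2c stood at 8.04 CPM in AT3-gcsf MHTO4, against 0.551 and 0.382 CPM in MHTO3 and MHTO5. It stood at 44.7 CPM in AT3 MHTO7, against 6.35 and 5.88 CPM in MHTO8 and MHTO10, and at 55.7 CPM in naive MHTO4, against 2.09 and 19.1 CPM in MHTO3 and MHTO5. In each library 1 population was high and both others were lower, and naive MHTO5 lay between.

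**Figure D4:**
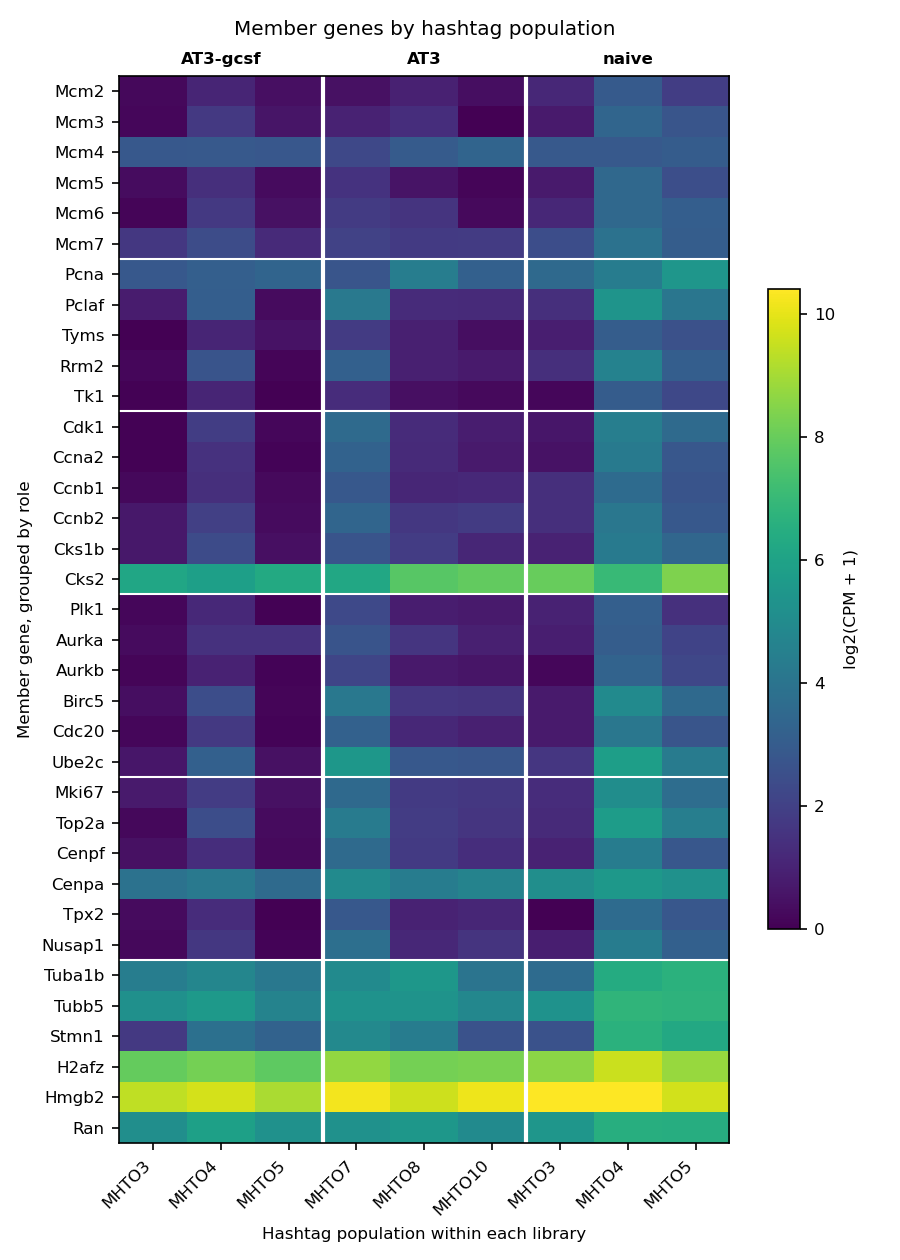
Level of 35 members (rows, grouped by role) as log2(CPM + 1) in the 9 hashtag populations (columns) of the AT3-gcsf, AT3 and naive libraries. Ube2c and its neighbours are brightest in AT3-gcsf MHTO4 (8.04 CPM), AT3 MHTO7 (44.7 CPM) and naive MHTO4 (55.7 CPM), while Cks2 is not highest in these.

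Members at least 2-fold above both other populations of a library numbered 2 of the 13 that reached a mean of 2 CPM in AT3-gcsf MHTO4 (Pclaf and Ube2c), where 0.579% of all genes tested did so. In AT3 MHTO7 they were 15 of 27, against 2.20% of all genes, and in naive MHTO4 15 of 35, against 3.29%. Pclaf, Rrm2, Ccna2, Ccnb2, Birc5, Cdc20, Ube2c, Mki67, Top2a, Cenpf and Nusap1 were among the 15 in both. Mcm2 and Mcm5 were so only in naive MHTO4 among these populations. Only Pcna was at least 2-fold above both others elsewhere, in AT3 MHTO8 (20.3 CPM, against 5.66 and 8.04 in MHTO7 and MHTO10) and in naive MHTO5 (43.1 CPM, against 10.6 and 19.8 in MHTO3 and MHTO4), populations where 11.6% and 17.8% of all genes met this rule. Markers of other cell types were also high there: 8 epithelial markers summed to 7364 CPM in AT3 MHTO8, against 75.6 and 782 CPM in MHTO7 and MHTO10, and to 11691 CPM in naive MHTO5, against 219 and 571 CPM in MHTO3 and MHTO4. The 8 dendritic cell markers summed to 462 CPM in AT3 MHTO8, against 12.6 and 43.5 CPM, and to 3078 CPM in naive MHTO5, against 746 and 204 CPM, and the part of such cells in the Pcna levels was not tested. No member did in AT3-gcsf MHTO3 or MHTO5 or AT3 MHTO10, where 0.0503%, 5.22% and 2.66% of all genes did, nor in naive MHTO3, where 398 of 9960 genes did.

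Cks2 had another order. It stood at 70.3, 57.1 and 77.7 CPM in AT3-gcsf MHTO3, MHTO4 and MHTO5, at 74.5, 207 and 241 CPM in AT3 MHTO7, MHTO8 and MHTO10, and in naive MHTO3, MHTO4 and MHTO5 at 254, 127 and 337 CPM. It was lowest of its library in AT3-gcsf MHTO4, AT3 MHTO7 and naive MHTO4, where the other division members were highest, except Aurka in AT3-gcsf MHTO4. Hmgb2, a chromatin protein of high abundance, spanned 538 to 844 CPM in AT3-gcsf, 781 to 1179 CPM in AT3 and 828 to 1346 CPM in naive populations. Tuba1b, an alpha tubulin, was highest in AT3-gcsf MHTO4 (26.4 CPM), AT3 MHTO8 (43.8 CPM) and naive MHTO5 (99.0 CPM).

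Between libraries, all 35 members had lower CPM in AT3-gcsf than in naive cells, except that Mcm4, Hmgb2 and Ran turned higher when scaled by TMM factors and Mcm4 when scaled without the 20 most abundant genes. By at least 2-fold 30 of the 33 that reached a mean of 2 CPM were lower, where 28.5% of all genes tested were lower and 3.14% higher by that much. The median log2 ratio was -2.09 over the 35 members and -0.56 over all genes. For AT3 over naive, 18 members were lower and none higher, against 11.4% and 1.48% of all genes, with medians of -1.09 and -0.47. For AT3-gcsf over AT3, 16 were lower and none higher, against 6.98% and 1.58%, with medians of -0.82 and -0.09. The comparisons share libraries, so their counts are not independent. Scaling by TMM factors moved the median of all genes to 0.25, 0.08 and 0.18 and that of the members to -1.46, -0.50 and -0.65, in the order of the comparisons. For AT3 over naive Mcm4, Cks2, Aurka, Ube2c and Hmgb2 were then above 0.

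By role, the MCM helicase subunits other than Mcm4 were lower in both tumour libraries than in naive cells, by much the same in each. Mcm5 stood at 0.732 CPM in AT3-gcsf, 0.977 CPM in AT3 and 6.37 CPM in naive cells, log2 ratios over naive of -2.09 and -1.90. Mcm6 was at 0.976, 1.84 and 7.38 CPM (-2.08 and -1.56), Mcm3 at 1.04, 1.03 and 6.17 CPM (-1.81 and -1.82), and Mcm7 at 2.64, 2.70 and 9.74 CPM (-1.56 and -1.54). Mcm2, below the mean of 2 CPM, was at 0.565, 0.594 and 4.21 CPM. Mcm4 alone in the helicase was nearly level, at 6.24, 6.11 and 6.67 CPM, -0.08 and -0.11. Between AT3-gcsf and AT3 no subunit differed by 2-fold.

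The fork and nucleotide genes ranged more widely. Pclaf was at 2.96 CPM in AT3-gcsf, 7.99 CPM in AT3 and 23.9 CPM in naive cells, with log2 ratios of -2.65 for AT3-gcsf over naive, -1.47 for AT3 over naive and -1.18 for AT3-gcsf over AT3. Rrm2 was at 1.99, 3.76 and 13.3 CPM (-2.26, -1.59 and -0.67) and Tyms, thymidylate synthase, at 0.576, 1.40 and 5.02 CPM (-1.93, -1.33 and -0.61). Pcna was at 8.11, 12.0 and 24.5 CPM (-1.49, -0.98 and -0.51). Tk1, thymidine kinase and below the mean of 2 CPM, was at 0.399, 0.767 and 4.38 CPM.

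Cdk1, the mitotic kinase, stood at 1.009 CPM in AT3-gcsf, 5.23 CPM in AT3 and 13.0 CPM in naive cells, log2 ratios of -2.80, -1.17 and -1.63. Its cyclins followed: Ccna2 was at 0.687, 4.18 and 10.4 CPM, Ccnb1 at 0.709, 3.26 and 7.25 CPM, and Ccnb2 at 1.25, 5.19 and 9.91 CPM. All 3 cyclins were lower by at least 2-fold in AT3-gcsf cells than in either other library, and Ccna2 alone of them in AT3 over naive cells (-1.14). The docking subunit Cks1b was at 1.76, 3.49 and 11.6 CPM, and Cks2 at 68.6, 159.7 and 221 CPM, -1.67, -0.46 and -1.21.

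Among mitotic kinases and ubiquitin ligase parts, Ube2c was at 3.13, 21.8 and 31.8 CPM in AT3-gcsf, AT3 and naive cells (-2.99, -0.52 and -2.47), with AT3 nearer to naive than to AT3-gcsf. Birc5 was at 1.70, 8.01 and 17.3 CPM and Cdc20, the activator of the anaphase-promoting complex, at 0.865, 4.06 and 9.30 CPM. Of the kinases, Plk1 was at 0.510, 2.03 and 4.35 CPM, Aurka at 1.40, 3.22 and 4.58 CPM, and Aurkb at 0.410, 1.76 and 5.16 CPM. All 6 were lower in AT3-gcsf than in naive cells by at least 2-fold, Aurka by the least (-1.22).

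In the spindle and chromosome group, Top2a stood at 1.75 CPM in AT3-gcsf, 9.26 CPM in AT3 and 31.0 CPM in naive cells, a log2 ratio of -3.54 for AT3-gcsf over naive, the lowest of the 35 members. Mki67 was at 1.24, 5.81 and 19.1 CPM (-3.17, -1.56 and -1.60). Cenpf, a kinetochore protein, was at 0.721, 5.75 and 10.9 CPM, Nusap1, which bundles spindle microtubules, at 0.865, 6.17 and 11.6 CPM, and Tpx2, an activator of Aurora A, at 0.599, 3.14 and 7.04 CPM. These 3 were lower by 2-fold in AT3-gcsf cells than in either other library, and none was in AT3 over naive cells. Cenpa was at 14.2, 24.8 and 40.5 CPM (-1.45, -0.69 and -0.77).

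Of the members also used outside the cycle, Stmn1, which destabilises microtubules, was at 8.77, 20.4 and 68.9 CPM in AT3-gcsf, AT3 and naive cells (-2.84, -1.71 and -1.13). Tuba1b was at 21.0, 32.7 and 70.6 CPM and the beta tubulin Tubb5 at 35.6, 36.7 and 91.6 CPM, both lower by 2-fold in each tumour library than in naive cells. H2afz, a histone variant, was at 257, 351 and 575 CPM, lower by 2-fold only for AT3-gcsf over naive (-1.16). Hmgb2 (680.5, 1006 and 1187 CPM, -0.80) and Ran, of nuclear transport (44.5, 38.9 and 78.5 CPM, -0.81), missed 2-fold there.

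The tag populations of the libraries overlapped for most members, with 1 high population beside lower ones. All 3 AT3-gcsf populations were below all 3 naive populations for 6 of the 33 members (Mcm7, Pcna, Ccnb1, Cks2, Cenpa and H2afz), where 32.1% of all genes were. For AT3 below naive these were 2 (Mcm7 and Cenpa, against 19.2%) and for AT3-gcsf below AT3 1 (Cenpa, against 8.42%). These shares of members are at or below the share of all genes.

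The ratios were also taken without the multi-member cells, which removes core members by construction. The log2 ratio of the core sum was then -1.48 for AT3-gcsf over naive, -0.48 for AT3 over naive and -0.9996 for AT3-gcsf over AT3, against -2.18, -0.87 and -1.31 with them. The median log2 ratio of the 35 members was -0.63 for AT3-gcsf over naive, -0.42 for AT3 over naive and -0.18 for AT3-gcsf over AT3, beside -0.47, -0.42 and -0.06 over all genes. Of the 35, 5, 0 and 1 were then lower by at least 2-fold. For AT3-gcsf over naive these were Mcm6 (-1.35), Pcna (-1.04), Cks2 (-1.62), Cenpa (-1.04) and Stmn1 (-1.60), and for AT3-gcsf over AT3 it was Cks2 (-1.20). Cks2 had -1.67 for AT3-gcsf over naive with the multi-member cells, so it moved little.

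**Figure D5:**
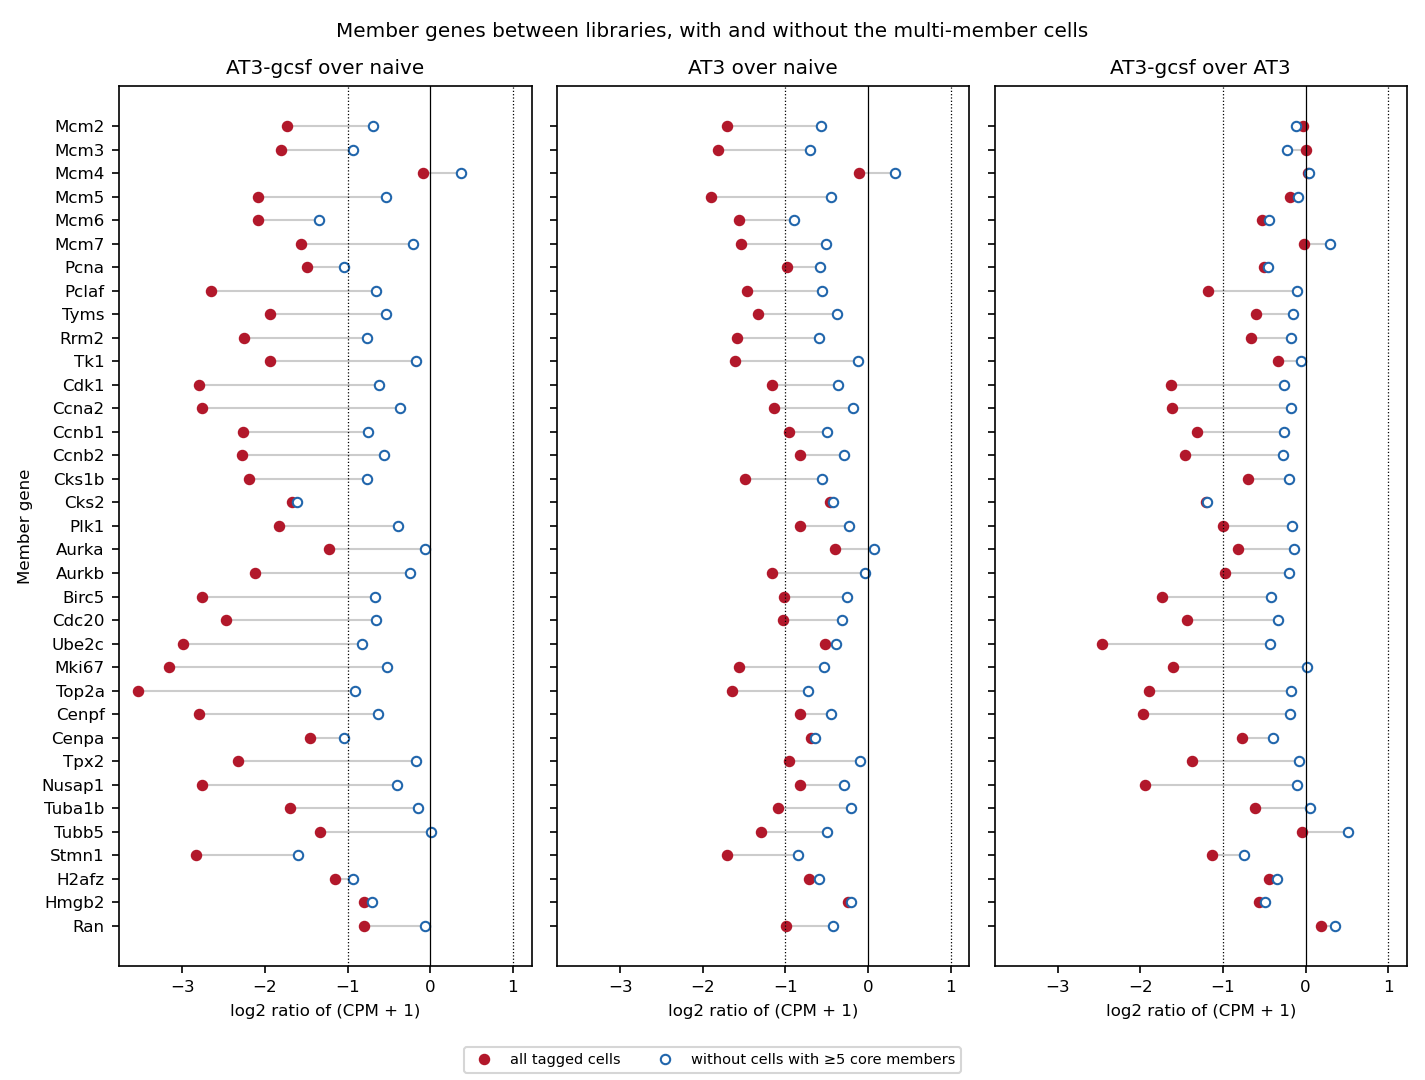
Log2 ratio of CPM + 1 (horizontal axis) for 35 members (rows) in the 3 comparisons between libraries, over all tagged cells (filled) and without the multi-member cells (open), with 2-fold dotted. For AT3-gcsf over naive the median moves to -0.63 without these cells, beside -2.09 with them, and Cks2 stays at -1.62.

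For AT3 over naive the count depended on which cells were included. Without barcodes called in another library 5 in place of 18 members were lower by 2-fold, and none was without cells carrying at least 3 markers of another lineage, nor within neutrophil-marker-rich cells. Leaving out 1 tag population at a time gave 4 members without naive MHTO4 and 28 without naive MHTO3. For AT3-gcsf over AT3, 1 member in place of 16 was lower without AT3 MHTO7. In neutrophil-marker-rich cells the log2 ratio of the core sum was -0.43 for AT3 over naive, -2.05 for AT3-gcsf over naive and -1.62 for AT3-gcsf over AT3. The AT3-gcsf library was thus below both others in this class. The sums were over all 7282 AT3-gcsf, 4711 AT3 and 3004 naive cells of the class, of which 7, 29 and 24 were multi-member cells. They include Cks2, whose part in these ratios was not tested.

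A wider list of 110 cell cycle genes, members aside, was described in the same way, and 69 reached a mean of 2 CPM. For AT3-gcsf over naive 46 were lower and 1 higher by at least 2-fold, for AT3 over naive 24 and 2, and for AT3-gcsf over AT3 16 and 0, where 28.5%, 11.4% and 6.98% of all genes tested were lower. The median log2 ratios of the 110 were -1.33, -0.92 and -0.39, beside -0.56, -0.47 and -0.09 over all genes. Genes of DNA synthesis were lower in both tumour libraries than in naive cells, 10 of 12 and 7 of 12 that passed, and 1 of 12 for AT3-gcsf over AT3. Spindle and checkpoint genes were lower in 16, 4 and 9 of 17. The median log2 ratios were -1.33, -1.10 and -0.24 over the 22 genes of DNA synthesis and -1.70, -0.92 and -0.81 over the 30 spindle and checkpoint genes. Whether these lists differed from each other was not tested.

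The named genes of this list were the 5 lowest and 5 highest of each comparison. Ccnd2 stood at 5.98 CPM in AT3-gcsf, 20.7 CPM in AT3 and 48.0 CPM in naive cells, -2.81 for AT3-gcsf over naive. Dut, which removes dUTP from the nucleotide pool, was at 2.85, 2.72 and 20.1 CPM, the lowest for AT3 over naive at -2.50. Spc24 and Cenpe of the kinetochore and Cdca8 of the passenger complex were at -2.41, -2.38 and -2.40 for AT3-gcsf over naive. Anln, Lig1, Rrm1 and E2f8 were between -1.52 and -1.44 for AT3 over naive. For AT3-gcsf over AT3, Ccnd2 (-1.64), Prim2 (-1.63), Cdca8 (-1.45), Cdkn1c (-1.43) and Prc1 (-1.32) were lowest.

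The highest genes were few. Cdc25b, a phosphatase that activates cyclin-dependent kinases, stood at 37.5 CPM in AT3-gcsf, 31.7 CPM in AT3 and 9.17 CPM in naive cells, log2 ratios over naive of 1.92 and 1.69. In neutrophil-marker-rich cells other than multi-member ones it was at 41.2, 35.6 and 7.30 CPM. Cdkn2d, an inhibitor of the cyclin D kinases, was at 274, 303 and 144 CPM, higher by 2-fold in AT3 (1.07) but not in AT3-gcsf cells (0.92). Ccnd3 was at 485, 470 and 373 CPM (0.38 and 0.33 over naive). Gmnn, which blocks relicensing of origins, was the highest for AT3-gcsf over AT3, at 7.23 against 4.25 CPM (0.65), short of 2-fold, ahead of Rfc5 at 0.34. Of 14 inhibitor and quiescence genes that passed, 4 were lower for AT3-gcsf over naive, a share near the 28.5% of all genes, among them Cdkn1a at 35.3 CPM in AT3-gcsf, 73.6 CPM in AT3 and 105 CPM in naive cells (-1.55).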

How the data were processed

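The libraries are droplet single-cell gene expression libraries of sorted neutrophils, each with a hashtag library, as raw UMI counts per gene and barcode that the authors deposited. Per the submitters' processing notes, bcl2fastq (2.20.0.422) and Cell Ranger (4.0.0) were run, with build mm10. How hashtags were counted is not given. Each gene expression matrix was joined to the hashtag counts whose barcodes it shared: 94.1%, 97.4% and 95.7% of called barcodes carried a dominant tag in the joined AT3-gcsf, AT3 and naive files, and at most 0.672% in any other. A cell was assigned to its top named tag at 80% or more of its tag counts and at least 20 of them, which leaves out barcodes with mixed tags. Doublets within 1 tag remain, and no doublet caller was run. No filter on lineage was used.

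Counts were summed per library and tag and expressed as CPM of all UMIs. Genes with a mean of 2 CPM over the 3 libraries (within a comparison of populations or cells, over the groups compared) were tested, 8970 between libraries, and a log2 ratio of CPM + 1 of at least 1 (2-fold) in size was called, on a scale that understates the change of low genes. Intervals are exact Poisson or Clopper-Pearson 95% intervals. UMIs of the 3 libraries totalled 90208108 (AT3-gcsf), 52187262 (AT3) and 29668871 (naive). The members, the list of 110 further genes and the marker lists were chosen with earlier results of these data known. The text names every member, the 5 lowest and 5 highest of the further genes per comparison, and inhibitors and markers picked after their values were seen, as the marker classes were. Tubulins, histone and Hmgb genes have close copies, so reads may be split or shared. Promoters come from RefSeq (GRCm38.p6). Python 3.11.15, numpy 2.4.6, scipy 1.17.1 and pandas 2.3.3 were used, with R 4.3.3 and edgeR 4.0.16 for TMM factors only. The fold calls were tested on simulated counts. Alternatives are named in the closing section.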

Additional observations from a re-analysis of the deposited data

Results flagged for a closer look

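Barcodes with no assigned tag, which enter no comparison, also held cells with at least 5 core members. Their number was 5 of 635 untagged barcodes in the AT3-gcsf library (0.787%), 8 of 206 in the AT3 library (3.88%) and 10 of 332 in the naive library (3.01%). The intervals were 0.256 to 1.83%, 1.69 to 7.51% and 1.45 to 5.47%, beside 0.235%, 0.655% and 0.905% of tagged cells, whose own intervals overlapped these in the AT3-gcsf library and lay below them in the AT3 and naive libraries. At least 10 core members were found in 4, 2 and 8 of them. In the AT3 library 6 of the 8 shared a barcode with another library and held between 518 and 1465 UMIs, while 2 of the 10 naive barcodes and none of the 5 AT3-gcsf barcodes were shared. The part of mixed tags in these values was not tested.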

How the results depend on the processing

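No direction of the core sum turned under any alternative run. The log2 ratio of the core sum was -2.18 for AT3-gcsf over naive, -0.87 for AT3 over naive and -1.31 for AT3-gcsf over AT3, and in the same order it was -2.12, -0.92 and -1.20 over all called barcodes, -1.78, -0.36 and -1.42 without cells with at least 3 markers of another lineage, -1.44, -0.23 and -1.21 in cells thinned to 1500 UMIs, -1.03, -0.10 and -0.94 as UMIs per cell, -1.27, -0.26 and -1.01 with TMM factors, and -1.17, -0.56 and -0.62 with all 35 members. Leaving out Cks2 gave -2.60, -1.19 and -1.41, leaving out Cks2, Mcm4, Cenpa and Pcna -3.22, -1.33 and -1.90, leaving out the multi-member cells -1.48, -0.48 and -0.9996, and neutrophil markers at or above 20% of UMIs -2.05, -0.43 and -1.62, or below it -1.22, -0.68 and -0.54. Over naive, AT3-gcsf and AT3 had -1.79 and -0.50 without shared barcodes, -1.96 and -0.64 with totals less the 20 most abundant genes, and -2.11 and -0.79 with equal weights of populations; a stricter tag (90%) gave -2.14 for AT3-gcsf. Without 1 tag population at a time the ranges were -2.40 to -1.95, -1.05 to -0.64 and -1.53 to -1.19.

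Members apart by 2-fold numbered 30, 18 and 16. With a filter of 20 CPM they were 10, 5 and 3, in thinned cells 7, 4 and 2, and without multi-member cells, the filter reapplied, 4, 0 and 1. Without other-lineage cells they were 19 and 0 over naive, a pseudocount of 5 CPM gave 7 for AT3 over naive and 3 for AT3-gcsf over AT3, and TMM factors gave 8 for AT3 over naive. For AT3 over naive they were 5 without shared barcodes and 0 in neutrophil-marker-rich cells, and for AT3-gcsf over AT3 2 in cells below that limit. Without 1 population the ranges were 21 to 33, 4 to 28 and 1 to 20.

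The percent of multi-member cells in AT3-gcsf, AT3 and naive was 0.0888, 0.413 and 0.365 without other-lineage cells, 0.0795, 0.319 and 0.547 after thinning, 1.24, 2.07 and 2.30 at a threshold of 3 core members and 0.128, 0.419 and 0.635 at 10. It was 0.445 in AT3 without Cks2, Mcm4, Cenpa and Pcna, 0.694 in naive without shared barcodes, and 0.0961 and 0.584 in AT3-gcsf cells above and below the 20% limit. Without 1 population the ranges were 0.151 to 0.314, 0.372 to 0.943 and 0.342 to 1.45. The order of AT3 and naive thus turned without other-lineage cells, and the cause was not tested. No paired analysis was possible because each condition has 1 library. With 67 or fewer such cells per library, counting error limits every share.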
